A study of Homo sapiens with 6 samples.

Results

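The genes described here encode the subunits of the protein-conducting channel of the endoplasmic reticulum (ER) and of the receptor that brings ribosomes to it: SEC61A1, SEC61B, SEC61G, SEC62, SSR1, SSR2, SSR3, SSR4, SRPR and SRPRB. They were chosen by symbol in the deposited table, which holds 57820 annotated genes, with SRPR under its older symbol (now SRPRA). All 10 were found, and all 10 were among the 14889 genes tested, those whose normalised count averaged 10 or more. The samples are polyadenylated RNA of U2OS, an established line of human osteosarcoma cells, taken after 4 h with 5 µM NMS-873 (3 libraries) or with its solvent, 0.05% DMSO (3 libraries). NMS-873 inhibits VCP, the ATPase that extracts ubiquitylated proteins from the ER and other structures for degradation. No genotype differed between the groups, and the whole study rests on a single cell line. Nothing in the labels tells whether each library is a culture of its own, so the p-values cover the spread among these libraries alone, which may be technical. In limma that spread was estimated mostly from other genes of similar level. In bulk RNA, fewer cells of a type and less RNA per cell cannot be told apart.

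Most secreted and membrane proteins enter the ER while they are being made. The signal recognition particle (SRP) binds the signal sequence of the growing chain and docks at the SRP receptor, a membrane heterodimer of SRPR (the alpha subunit, a GTPase) and SRPRB (the beta subunit, the GTPase that anchors it). The ribosome is then handed to the SEC61 channel, whose pore is SEC61A1 with the small subunits SEC61B and SEC61G beside it. SSR1 to SSR4 form the translocon-associated protein (TRAP) complex, which sits next to the channel and helps some signal sequences to open it. SEC62 works with SEC63 at the channel for proteins that enter after synthesis, and also serves as a receptor for the autophagy of ER membrane.

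With NMS-873, transcripts of the pore subunit SEC61A1 and of the receptor subunit SRPRB rose most among the 10 genes, by 1.31-fold and 1.34-fold, and all 4 TRAP subunits rose by 1.12-fold to 1.19-fold. In limma, at an adjusted p under 0.05, 7 of the 10 rose and 0 fell, where 14.9% of all genes tested rose and 33.0% fell. SEC61G was the other gene that rose, while SEC61B, SEC62 and SRPR did not pass. The median log2 fold change of the 10 was 0.16, and that of all genes tested was -0.10. In 6 of the 10 all 3 NMS-873 libraries lay above all 3 DMSO libraries, as they did in 16.4% of all genes tested. The deposited values are scaled to ERCC spike-in RNA, and the scale matters for changes of this size. When libraries were scaled to the genes instead, the median gene was at -0.01 and all 10 rose, with 24.2% of all genes called higher and 22.0% lower. By the adjusted p of the authors' deposited table, 6 of the 10 were higher at a limit of 0.05, with 12.4% of the genes tested here higher, and SEC61G (adjusted p = 0.0888) was not among them.

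The libraries held 21132311 to 22188004 reads in genes with NMS-873 and 21142319 to 22488952 with DMSO. Each of the 10 genes had between 1194 and 16666 reads in every library. Relative counting error was thus smallest for SEC61A1 and largest for SEC61G. For the genes with fewest reads it was not negligible beside changes of 1.10-fold or less. NMS-873 replicate 1 stood apart from the other libraries of its group. Against NMS-873 replicates 2 and 3 its reads gave a chi-square of 7.49 and 7.96 per degree of freedom, compared with 1.53 to 3.64 between DMSO libraries and 1.80 between NMS-873 replicates 2 and 3. Without it 9 of the 10 genes rose, and 2406 of all genes tested rose, against 2217 with all 6 libraries. Of the bone and mesenchymal markers, COL1A1, VIM and SPARC were abundant, at 167, 383 and 431 FPKM with NMS-873 and 225, 439 and 442 FPKM with DMSO. RUNX2 was low, at 0.656 FPKM with NMS-873 and 1.27 FPKM with DMSO. COL1A2 was below the minimum for the test, and ALPL, the other marker of that list, was tested. Of 6 such markers 5 were tested, of which 4 were lower with NMS-873 and 0 were higher (3 and 0 with libraries scaled to the genes), where 33.0% of all genes were lower, and their part in the results was not tested. Of the markers of epithelial, leukocyte and endothelial cells, EPCAM, CDH1, KRT19, PTPRC and CDH5 stayed at or under 1.61 FPKM in every library, and PECAM1 was not matched to a row. The summed normalised counts of these 5 genes were 116 to 130.3 with NMS-873 and 116 to 149 with DMSO, and 0 of the 3 that were tested passed.

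Per length, the 10 transcripts spanned a wide range of levels. SEC61A1 stood highest, at 161 ± 2.75 FPKM with NMS-873 and 123 ± 2.92 FPKM with DMSO (SD, n = 3 each, as for all levels here). FPKM is the number of reads per kilobase of the gene length used for the deposited values, scaled for depth, here on the spike-in scale. Those implied lengths ran from 1190 bases for SEC61B to 11356 for SSR1, with 4590 for SSR4. They need not be the lengths of the transcripts present, so the order of the genes by FPKM depends on them. SSR3 followed at 95.6 ± 2.02 FPKM with NMS-873 and 85.2 ± 3.59 FPKM with DMSO, and SEC61B at 76.1 ± 4.95 FPKM with NMS-873 and 72.7 ± 3.77 FPKM with DMSO. The next in both groups were SRPR, SSR2 and SEC61G, between 35.3 and 39.8 FPKM with NMS-873 and between 32.0 and 36.7 FPKM with DMSO. In that trio SRPR and SSR2 overlapped in their libraries in both groups, and SSR2 and SEC61G did so with DMSO but not with NMS-873. SSR4, SRPRB and SSR1 lay between 20.5 and 23.6 FPKM with NMS-873 and between 17.3 and 19.9 FPKM with DMSO. SEC62 was lowest, at 10.6 ± 1.09 FPKM with NMS-873 and 10.1 ± 0.616 FPKM with DMSO. The order was the same in both groups but for SRPRB and SSR1: SRPRB was eighth with NMS-873, with all its libraries above those of SSR1, and ninth with DMSO, where its libraries overlapped those of SSR1.

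**Figure D1:**
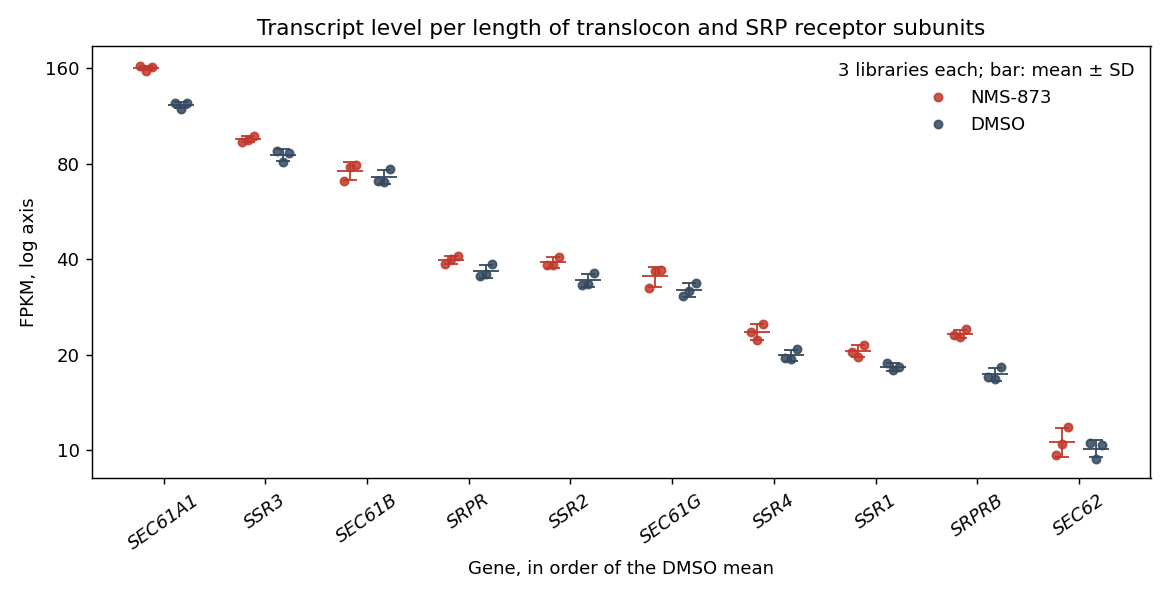
Transcript level per length of the 10 genes in FPKM on a log axis, in order of the DMSO mean. Points are the 3 libraries of NMS-873 (left of each pair, red) and of DMSO (right, dark), with mean and SD. The NMS-873 points all lie above the DMSO points for SEC61A1, the 4 TRAP subunits and SRPRB, though by little for SSR1. The groups overlap for SEC61B, SEC61G, SEC62 and SRPR.

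Of the 3 subunits of the SEC61 channel, SEC61A1 and SEC61G rose and SEC61B did not pass. SEC61A1 (ENSG00000058262.5, chromosome 3, 127770484 to 127790526, plus strand, hg19), the pore itself, had 16707, 16167 and 16576 normalised counts with NMS-873, against 12805, 12258 and 12745 with DMSO. Its lowest NMS-873 library was well above its highest DMSO library, and it rose 1.31-fold (log2 fold change 0.39, SE 0.059, limma adjusted p = 2.92e-09). SEC61B (ENSG00000106803.5, chromosome 9, 101984346 to 101992897, plus strand), the beta subunit, had 1831, 2035 and 2068 normalised counts with NMS-873, against 1842, 1828 and 2005 with DMSO. The groups overlapped, and its log2 fold change of 0.06 (95% interval -0.05 to 0.17, limma adjusted p = 0.352) did not pass. SEC61G (ENSG00000132432.9, chromosome 7, 54819943 to 54827667, minus strand), the gamma subunit, had 1304, 1473 and 1489 normalised counts with NMS-873, against 1228, 1279.8 and 1354 with DMSO. It rose 1.10-fold (log2 fold change 0.14, limma adjusted p = 0.0327), although NMS-873 replicate 1 lay inside the DMSO range. That call was lost when any one of DMSO replicate 1, DMSO replicate 2, NMS-873 replicate 2 or NMS-873 replicate 3 was left out, and also without a count minimum, on log2(FPKM + 0.1) and without the variance trend. Its log2 fold change was 0.20 without NMS-873 replicate 1.

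The promoters of several of these genes hold short sequences that transcription factors of the ER stress response are known to bind, and those of the genes on which the comparison turns are shown. RefSeq promoter windows (build GRCh38.p14, 250 bases before to 50 after each annotated start) were found for 9 of the 10 genes, in 13 windows, and none for SRPR. Both strands were searched for the ER stress element (ERSE, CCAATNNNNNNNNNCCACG), ERSE-II (ATTGG, any base, then CCACG), the core of the unfolded protein response element (TGACGTG), the CCAAT box (CCAAT, which is also the first part of ERSE) and the core of the amino acid response element (TGATGNAA), bound by ATF4. The TGACGTG core stood in 4 of the 13 windows, of SEC61A1, SSR3, SSR4 and SEC62, and in 1.97% of all 35116 windows. ERSE was in 0 of the 13 and in 0.0769% of all windows, and ERSE-II in 0 and 0.0541%. The CCAAT box was in 7 of the 13 and in 34.6% of all windows, and the amino acid response core in 1, of SRPRB, and in 3.62% of all. A match is a run of letters only, and 3 of the 4 genes with the TGACGTG core rose while SEC62 did not pass. Among genes with a window but without that core, SEC61G, SSR1, SSR2 and SRPRB rose and SEC61B did not pass. The part of the core in these changes was not tested. In the stretches below, written 5′ to 3′ on the strand of the gene, capitals mark the TGACGTG core or its reverse complement in SEC61A1, SSR4 and SEC62, the amino acid response core in SRPRB, and, for comparison, ERSE in HSPA5, whose product BiP is the ER chaperone at the inner mouth of the channel. SEC61A1 (chr3:128052307-128052456, plus strand) and SRPRB (chr3:133805565-133805714, plus strand) are the genes that rose most, SSR4 (chrX:153794538-153794687, plus strand) rose most of the TRAP subunits, SEC62 (chr3:169966677-169966826, plus strand) did not pass, and the HSPA5 stretch is chr9:125241344-125241443, minus strand.
SEC61A1: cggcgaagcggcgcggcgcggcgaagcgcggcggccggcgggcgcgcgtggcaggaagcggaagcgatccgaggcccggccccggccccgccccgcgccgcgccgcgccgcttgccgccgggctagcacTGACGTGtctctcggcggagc
SRPRB: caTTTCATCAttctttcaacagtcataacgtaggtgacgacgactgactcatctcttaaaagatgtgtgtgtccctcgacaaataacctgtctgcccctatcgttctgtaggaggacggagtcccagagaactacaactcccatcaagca
SSR4: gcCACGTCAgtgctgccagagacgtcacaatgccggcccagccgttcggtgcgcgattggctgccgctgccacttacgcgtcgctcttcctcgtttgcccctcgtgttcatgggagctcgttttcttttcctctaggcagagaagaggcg
SEC62: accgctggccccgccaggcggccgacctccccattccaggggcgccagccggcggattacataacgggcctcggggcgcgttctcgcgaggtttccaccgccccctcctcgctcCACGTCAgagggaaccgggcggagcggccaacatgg
HSPA5: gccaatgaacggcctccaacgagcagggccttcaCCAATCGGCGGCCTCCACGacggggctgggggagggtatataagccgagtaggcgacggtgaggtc

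The core in SEC61A1 runs from base -1 to base 6 around the annotated start, that in SSR4 from -128 to -122 and that in SEC62 from -16 to -10. The SRPRB match lies at -248 to -241, and the ERSE of HSPA5 at -66 to -48. HSPA5 rose 6.78-fold, to 179406 ± 8506 normalised counts with NMS-873 against 26462 ± 907 with DMSO, a far larger change than that of any channel subunit. The part of ERSE in that difference was not tested.

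**Figure D2:**
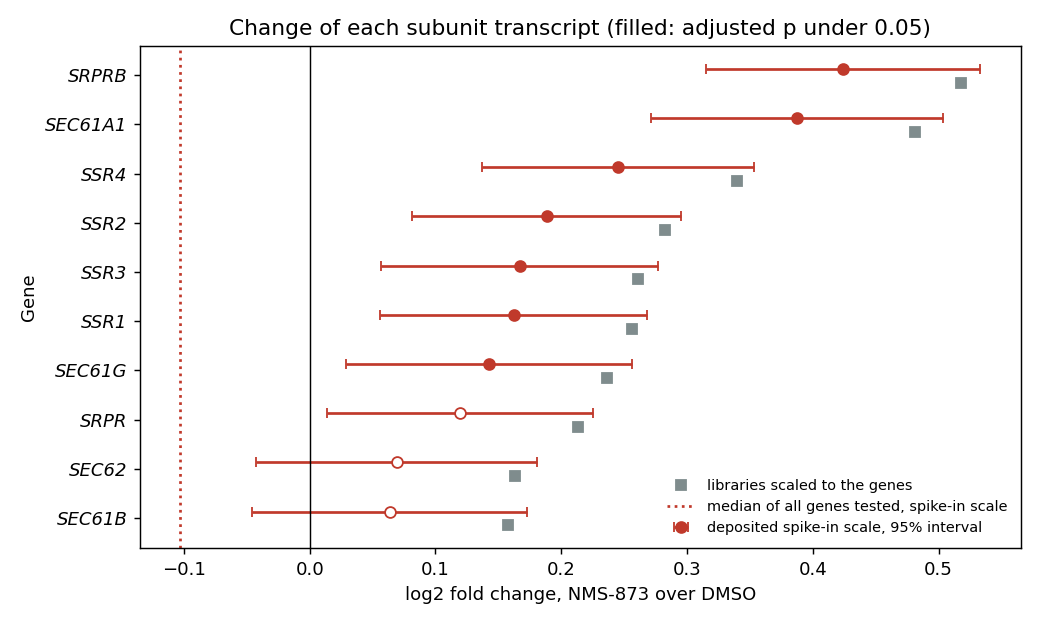
log2 fold change of each gene, NMS-873 over DMSO. Red circles with 95% intervals are on the deposited spike-in scale, filled where the limma adjusted p was under 0.05, grey squares are the values with libraries scaled to the genes, and the dotted line is the median of all genes tested (-0.10). SRPRB and SEC61A1 lie furthest right, at 0.42 and 0.39, and the intervals of SEC62 and SEC61B cross 0.

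All 4 subunits of the TRAP complex rose in the main test, and without the variance trend SSR4 alone of them passed. SSR4 (ENSG00000180879.9, chromosome X, 153058971 to 153063960, plus strand), the delta subunit, had 2368, 2223 and 2508 normalised counts with NMS-873, against 1963, 1936 and 2085 with DMSO, and rose 1.19-fold (log2 fold change 0.25, SE 0.0549, limma adjusted p = 5.92e-05). SSR2 (ENSG00000163479.9, chromosome 1, 155978839 to 155990750, minus strand), the beta subunit, had 5559.7, 5554 and 5919.7 normalised counts with NMS-873, against 4817, 4869 and 5266 with DMSO, and rose 1.14-fold (log2 fold change 0.19, limma adjusted p = 0.00201). In both genes the groups did not overlap. SSR3 (ENSG00000114850.2, chromosome 3, 156257929 to 156272973, minus strand), the gamma subunit, had 9503, 9602 and 9896 normalised counts with NMS-873, against 8881, 8202 and 8763 with DMSO, and rose 1.12-fold (log2 fold change 0.17, limma adjusted p = 0.00890). SSR1 (ENSG00000124783.8, chromosome 6, 7268539 to 7347679, minus strand), the alpha subunit, had 5042, 4885 and 5330.2 normalised counts with NMS-873, against 4682, 4427 and 4519 with DMSO, and rose 1.12-fold (log2 fold change 0.16, limma adjusted p = 0.00805). Here too the groups did not overlap, but the distance between the lowest NMS-873 and the highest DMSO library was small. The SSR1 call was lost without NMS-873 replicate 3 and the SSR3 call without DMSO replicate 2.

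Of the 2 subunits of the SRP receptor, SRPRB rose and SRPR did not pass. SRPRB (ENSG00000144867.7, chromosome 3, 133502877 to 133544616, plus strand) had 2100.2, 2071 and 2199.7 normalised counts with NMS-873, against 1552, 1527 and 1671 with DMSO. The groups lay far apart, and it rose 1.34-fold (log2 fold change 0.42, SE 0.0555, limma adjusted p = 6.23e-12). SRPR (ENSG00000182934.7, chromosome 11, 126132814 to 126139039, minus strand) had 3511, 3649 and 3719 normalised counts with NMS-873, against 3227, 3269 and 3524 with DMSO. Its lowest NMS-873 library lay just under its highest DMSO library, and its log2 fold change of 0.12 (95% interval 0.01 to 0.23, unadjusted) did not pass (limma adjusted p = 0.0563). It passed with libraries scaled to the genes, to equal totals or to the upper quartile, and without NMS-873 replicate 1 or DMSO replicate 3. SEC62 (ENSG00000008952.12, chromosome 3, 169684423 to 169716161, plus strand) had 1669, 1808 and 2044 normalised counts with NMS-873, against 1824, 1628 and 1798 with DMSO. The NMS-873 libraries spread on both sides of the DMSO libraries, and the log2 fold change was 0.07 (95% interval -0.04 to 0.18, limma adjusted p = 0.317). It was 0.14 without NMS-873 replicate 1 (limma adjusted p = 0.0343) and -0.01 without NMS-873 replicate 3, so single libraries set its value.

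The p-values rest on a spread that limma estimated mostly from other genes of similar level, with 250.84 prior degrees of freedom. Without the trend of that spread with level, only SEC61A1, SRPRB and SSR4 passed of the 10, with adjusted p = 0.00195, 0.00281 and 0.0284 in limma, and SSR2, SSR3 and SSR1 lay just over the threshold, at 0.0507, 0.0546 and 0.0650. SEC61A1, SRPRB and SSR4 passed in all 17 settings, which count the main test and the alternatives.

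Ratios between subunits of one complex within a library do not depend on how libraries are scaled. Of 10 such pairs, 4 had NMS-873 and DMSO libraries apart: the 3 pairs of the SEC61 complex and the pair of the SRP receptor. The share of pairs apart among all genes was not computed, so this count has no background. The 3 SEC61 pairs share subunits and are not independent of each other. The log2 ratio of SEC61A1 to SEC61B, in normalised counts, was 3.19, 2.99 and 3.002 with NMS-873 and 2.80, 2.74 and 2.67 with DMSO, a difference of 0.32. That of SEC61A1 to SEC61G was 3.68, 3.46 and 3.48 with NMS-873 and 3.38, 3.26 and 3.23 with DMSO, a difference of 0.24. NMS-873 replicate 1 was the highest library in both, and without it the differences were 0.26 and 0.17. The log2 ratio of SEC61G to SEC61B was -0.49, -0.47 and -0.47 with NMS-873 and -0.58, -0.51 and -0.57 with DMSO, a difference of 0.08. That of SRPRB to SRPR was -0.74, -0.82 and -0.76 with NMS-873 and -1.06, -1.10 and -1.08 with DMSO, a difference of 0.30, and 0.29 without NMS-873 replicate 1. In these 4 pairs the two-sided exact permutation test gave p = 0.1, the smallest that 3 against 3 libraries allow, and 0.25 after Benjamini-Hochberg adjustment over the 10 pairs, so no ratio could pass. In the TRAP complex the groups overlapped in all 6 pairs, with differences of 0.00 to 0.08 and exact p between 0.2 and 0.9.

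**Figure D3:**
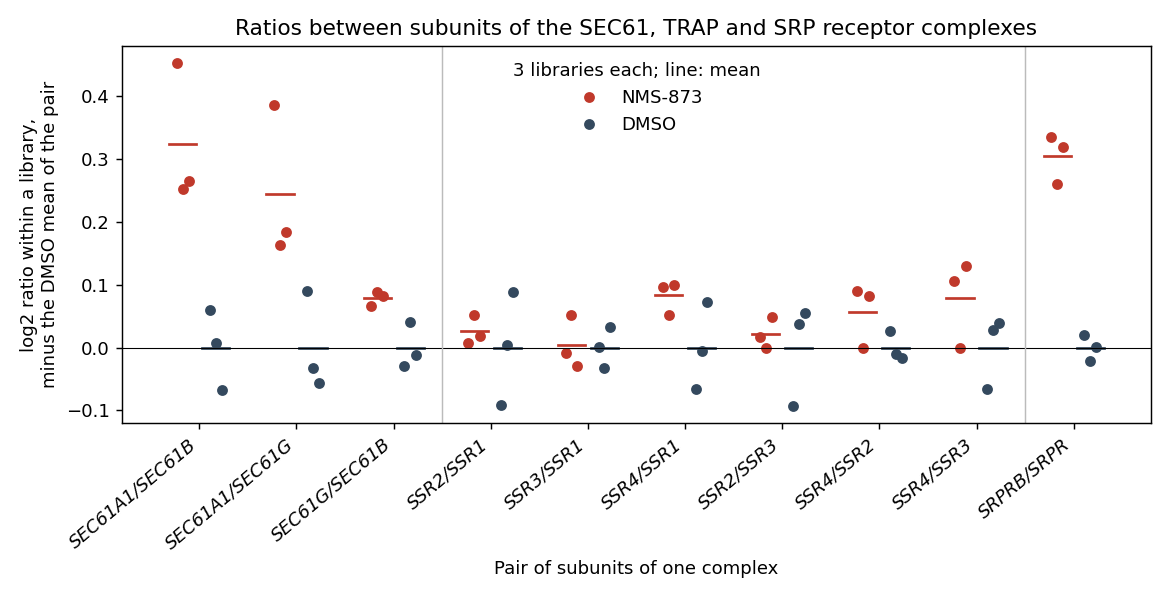
log2 ratio of normalised counts between 2 subunits of a complex within each library, minus the DMSO mean of that pair. Red points (left) are the 3 NMS-873 libraries, dark points (right) the 3 DMSO libraries, and lines are means. The groups are apart in the 3 SEC61 pairs and in SRPRB/SRPR and overlap in the 6 TRAP pairs.

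Per length, SEC61A1 made up 57.8% to 61.3% of the summed FPKM of the 3 channel subunits with NMS-873 and 52.9% to 55.2% with DMSO. SRPRB made up 36.1% to 37.4% of the summed FPKM of the receptor with NMS-873 and 31.8% to 32.4% with DMSO. The shares of the TRAP subunits moved little: SSR3 held 52.9% to 54.3% with NMS-873 and 53.5% to 55.1% with DMSO. The sizes of these shares depend on the gene lengths behind FPKM, which need not be those of the transcripts present.

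Some of these genes share genome sequence with other genes, and no source used here states if strand was used in counting, although the labels name a stranded kit. SEC61A1 overlaps RUVBL1 on the opposite strand over 6906 bases. RUVBL1 was lower with NMS-873, at 2479 ± 86.5 normalised counts against 2705 ± 189 with DMSO (limma adjusted p = 0.0495), and did not pass with libraries scaled to the genes (limma adjusted p = 0.545). SRPRB overlaps RAB6B over 1534 bases, and RAB6B had 282 ± 2.58 normalised counts with NMS-873 and 281 ± 8.46 with DMSO. SSR4 overlaps IDH3G over 1008 bases, with 678 ± 25.5 normalised counts with NMS-873 and 644 ± 43.8 with DMSO. SRPR overlaps FOXRED1 and FAM118B over 90 and 68 bases, and FOXRED1 was lower with NMS-873, at 390 ± 19.8 normalised counts against 464 ± 19.0 with DMSO (limma adjusted p = 0.00317), and did not pass with libraries scaled to the genes (limma adjusted p = 0.0519). The part of these neighbours in the values above was not tested. Annotated copies named by a member's symbol followed by P were at or close to 0: SSR1P1 and SSR1P2 had a mean normalised count of 0, and SSR4P1 of 3.34. Copies under other names were not sought.

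Other genes of protein entry into the ER were taken in 8 groups. Of these 60 genes, all of them tested, 14 rose and 12 fell, where 14.9% of all genes tested rose and 33.0% fell, and their median log2 fold change was -0.0047. With libraries scaled to the genes 25 rose and 6 fell, where 24.2% of all genes rose and 22.0% fell. The counts in each group below stand against the same shares, and no group was tested as a whole. Among the proteins around the channel 3 of 9 rose and 1 fell. SEC63, the partner of SEC62, rose 1.29-fold (limma adjusted p = 2.74e-09), and TRAM1, which lies beside the channel and was named after its value was seen, rose 1.27-fold (limma adjusted p = 5.49e-09). TRAM2, its paralogue, had 1499 ± 51.5 normalised counts with NMS-873 and 2878 ± 79.3 with DMSO, 1.92-fold lower with NMS-873 (limma adjusted p = 1.89e-42). SEC61A2, the paralogue of SEC61A1, was at a log2 fold change of 0.02 (limma adjusted p = 0.821) and was named after its value was seen.

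Of the 6 proteins of SRP, 2 rose and 1 fell. SRP68 rose 1.20-fold (limma adjusted p = 1.10e-05) and SRP19, a low transcript at 219 ± 11.05 normalised counts with NMS-873 and 176 ± 0.528 with DMSO, rose 1.24-fold (limma adjusted p = 0.00506). The DMSO libraries held 171, 186 and 178 reads of SRP19, so an SD that small lies below counting error. By the adjusted p of the authors' deposited table (0.0501) SRP19 did not pass. SRP14 was 1.12-fold lower (limma adjusted p = 0.00810). With libraries scaled to the genes 3 rose and 0 fell. NACA and BTF3, subunits of the nascent polypeptide-associated complex that competes with SRP at the ribosome, were at log2 fold changes of -0.07 each, and neither passed.

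Signal peptidase cuts off the signal sequence on the inner side of the membrane, and oligosaccharyltransferase adds sugar chains beside the channel. Of 5 signal peptidase subunits 3 rose and 1 fell. SEC11C, one of its catalytic subunits, rose 1.34-fold (limma adjusted p = 1.78e-08), SPCS2 rose 1.21-fold (limma adjusted p = 3.12e-05) and SPCS3 rose 1.13-fold (limma adjusted p = 0.00361). SEC11A, the other catalytic subunit and a gene picked after seeing its value, was 1.10-fold lower (limma adjusted p = 0.0328), and with libraries scaled to the genes it did not pass. Of 12 oligosaccharyltransferase subunits 5 rose and 2 fell. MAGT1 rose 1.32-fold, RPN1 rose 1.29-fold and OSTC, which links the enzyme to the channel, rose 1.22-fold (limma adjusted p = 2.77e-11, 2.57e-09 and 2.25e-06 in that order). DAD1 and OST4, both named after their values were seen, fell by 0.21 and 0.25 on the log2 scale, and both fell with libraries scaled to the genes too.

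Other machines also insert membrane proteins. Of 10 subunits of the ER membrane protein complex (EMC) 1 rose and 3 fell: EMC2 rose 1.29-fold, and EMC3 and EMC9 were 1.20-fold lower (limma adjusted p = 5.75e-05 and 0.00403), with EMC10, named after its value was seen, 1.10-fold lower. With libraries scaled to the genes 4 rose and 1 fell. Of 7 genes of the GET route for tail-anchored proteins 0 rose and 2 fell, UBL4A with 1552 ± 114 normalised counts with NMS-873 and 2543 ± 100.1 with DMSO (1.64-fold lower, limma adjusted p = 6.95e-28), and SGTA, 1.15-fold lower. Of 9 genes of the multipass translocon, which joins the channel for proteins with many membrane spans, 0 rose and 2 fell, TMCO1 at 1.14-fold and NCLN at 1.12-fold lower, and with libraries scaled to the genes 3 rose and 0 fell. That group holds NOMO1, NOMO2 and NOMO3, which are nearly identical in sequence, so their counts are uncertain.

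**Figure D4:**
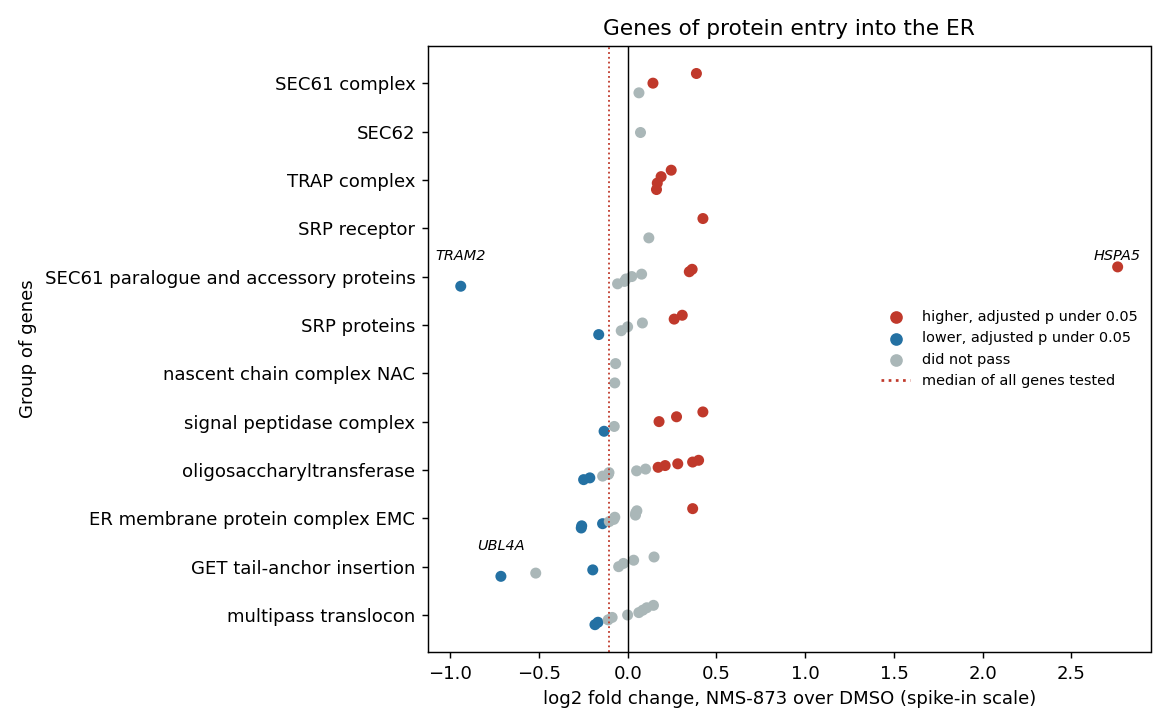
log2 fold change of every gene in the channel and receptor complexes (top 4 rows) and in 8 other groups of ER protein entry, NMS-873 over DMSO on the spike-in scale. Red points were higher and blue points lower at a limma adjusted p under 0.05, grey points did not pass, and the dotted line is the median of all genes tested. HSPA5 at 2.76, TRAM2 at -0.94 and UBL4A at -0.71 lie furthest from 0.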

How the data were processed

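The labels' protocols describe a stranded kit for polyadenylated RNA and single-read sequencing of the 6 pooled libraries. The submitters' processing notes list featureCounts 1.5.1, DESeq2 1.16.1 and hg19; no source used here names the aligner. One deposited table was used. Its header gives no unit for the sample columns, and the values deposited by the authors behave as FPKM: with the deposited mean normalised count (a signal averaged over the libraries, per the file headers) they gave whole reads for 100% of values within 0.001 and whole gene lengths. Size factors implied by these values matched those from the median of ratios of the spike-in RNA, so the deposited scale follows the spike-in RNA. The table also holds the authors' log2 fold change and their Benjamini-Hochberg adjusted p-value, both as deposited.

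Normalised counts were rebuilt from the FPKM. Genes with a mean of at least 10 were tested on log2(normalised count + 1) in limma 3.58.1 (R 4.3.3), fitting treatment alone with a trend of variance on level, two-sided tests and Benjamini-Hochberg adjustment over 14889 genes at 0.05. Fold changes are on that log scale, which understates changes of low genes. On the rebuilt reads, voom was an alternative. Intervals are 95% and unadjusted. Subunit ratios were compared with a two-sided exact permutation test. The fit was also run on simulated reads with the same dispersion for all genes and no outlying library, which does not check the calls reported here.

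The members, gene lists and tests were chosen with earlier results of these data known. The text names the 10 members, and in each other list up to 3 genes that passed, taken in order of adjusted p, and the one with the largest change. Genes outside that rule are marked as such. For 1 listed gene no row was found. Promoter sequences are from RefSeq, GRCh38.p14, and gene coordinates are those of the deposited table, hg19; these were not mixed. Replicates did not agree within sampling noise. Without molecular identifiers, reads are not independent molecules.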

Additional observations from a re-analysis of the deposited data

How the results depend on the processing

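SEC61A1, SRPRB and SSR4 rose under all alternatives tried. Of the 10 genes, 10 rose with libraries scaled to the genes, 8 with equal totals, with upper-quartile scaling and with the replicate block, 7 with voom, a count minimum of 50 or a pseudocount of 0.5, 6 without a count minimum and on log2(FPKM + 0.1), and 3 without the variance trend. Leaving out 1 library gave 5 to 9, and 0 fell in every case. The number of all genes that rose also moved, from 2217 in the main test. It was 2472 with equal totals, 2683 with the upper quartile and 2220 with voom. A count minimum of 50 gave 2112, a pseudocount of 0.5 gave 2216 and no count minimum 2144. On log2(FPKM + 0.1) it was 1995, without the variance trend 1801, and leaving out 1 library 1870 to 2406. The log2 fold change of SEC62 was 0.163 with libraries scaled to the genes, where it passed, and leaving out 1 library gave -0.00889 (without NMS-873 replicate 3) to 0.137 (without NMS-873 replicate 1). Scaled to the genes, 3608 of all genes rose and 3273 fell, and of the other pathway genes 25 rose and 6 fell; in SRP 0 fell, in signal peptidase 0 fell, in the EMC 4 rose and 1 fell, in the GET route 1 rose, and in the multipass translocon 3 rose and 0 fell. In the multipass translocon 1 rose with equal totals, the upper quartile, a count minimum of 50, voom and the replicate block. In signal peptidase 0 fell without a count minimum and on log2(FPKM + 0.1). Without the variance trend 7 other pathway genes fell, with 0 in SRP, 0 in signal peptidase, 1 in oligosaccharyltransferase and 0 in the multipass translocon.

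Leaving out 1 library, the number that fell ranged from 0 to 1 in SRP, from 0 to 1 in signal peptidase and from 1 to 2 in the multipass translocon, where 0 to 1 rose, and 0 to 1 rose in the GET route. The difference in log2 ratio ranged from -0.0200 to 0.0699 for SSR2 to SSR1, from -0.0193 to 0.0218 for SSR3 to SSR1 and from -0.0248 to 0.0492 for SSR2 to SSR3. Correlations of same-numbered libraries' deviations were 0.07, -0.02 and 0.12, and those of differently numbered libraries ran from -0.15 to 0.10. With 3 libraries per group, these values cannot tell if the numbers pair the samples. With the block 2352 genes rose and 5255 fell, and SRPR passed. In these cases where a count changed, the cause was not tested. For the blocked ratios the exact sign-flip test cannot go below 0.25.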
